A study of Mus musculus with 14 samples.

Results

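Mir142 and 7 genes that flank it on mouse chromosome 11 were examined in spleen T cells of CML mice: Mtmr4, Rnf43 and Supt4a upstream of Mir142 in its direction of transcription, and Tspoap1, Mks1, Dynll2 and Vezf1 downstream. These 8 genes were found by symbol among the 24091 genes of the deposited count table, and all 8 had enough reads to be tested. They were chosen by their place near Mir142 with their values in the same comparison of BC CML with CP CML already known, so those values are given below as a description, and where a member is said to be called or not by the fit over all genes, nothing is inferred from it. T cells (200000 per sample) had been sorted from the spleens of 14 mice. There were 8 mice of the CP CML group, which carried Mir142+/+BCR-ABL, and 6 of the BC CML group, which carried Mir142-/-BCR-ABL, males and females of 6 to 10 weeks on the C57Bl/6j (CD45.2) background, and each mouse gave 1 mRNA library. Both groups carried the SCLtTA and BCR-ABL transgenes, in which the tetracycline-controlled activator is driven by regulatory sequence of Scl, a gene of blood stem and progenitor cells, and BCR-ABL had been induced by tetracycline withdrawal for 3 weeks. The Mir142-/- genotype was that of all cells, not of T cells alone, and mice without BCR-ABL were not part of this experiment. Every CP CML mouse carried the same leading number in its name, and every BC CML mouse a different shared one. What that number stands for is not stated, and anything it marks cannot be told apart from genotype. The libraries held between 15703702 and 19914531 counted reads in CP CML and between 16145537 and 19399720 in BC CML. Each library was the RNA of many cells, so fewer cells that express a gene and less RNA per cell cannot be told apart in any value below.

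Mir142 is transcribed as a long primary RNA, from which a hairpin is cut and processed into 2 mature microRNAs, miR-142a-5p and miR-142a-3p, both abundant in blood cells. A mature microRNA lowers its target mRNAs by pairing, mainly through its seed (bases 2 to 8), with their 3′UTRs. Neighbouring genes can share enhancers, and the end of one transcription unit can reach into the next, so the genes beside a deleted gene are commonly inspected together with it. The reads of an mRNA library come from long RNAs, so the counts of Mir142 here measure its primary transcript and not the mature microRNAs.

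The sequences of the knocked-out gene are shown first, because they are the microRNAs that the genotype concerns. The extent of the deletion in the Mir142-/- allele was not analysed here. The RefSeq hairpin (GRCm38.p6, the same build as the counts, plus strand) lies at chr11:87756864-87756927, has 64 bases and is printed with the mature arms in capitals. The arms lie at chr11:87756867-87756887 (5p) and chr11:87756903-87756925 (3p) and are printed with the seed in capitals.
Mir142 hairpin: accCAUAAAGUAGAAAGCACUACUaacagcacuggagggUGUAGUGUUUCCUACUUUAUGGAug
miR-142a-5p: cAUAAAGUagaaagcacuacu
miR-142a-3p: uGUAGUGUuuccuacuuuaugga

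The 7 flanking genes were searched for sites that pair with these seeds in their longest annotated 3′UTR (GENCODE vM21). On the mRNA strand the letters searched for miR-142a-5p were ACTTTAT, which pairs with the whole seed, then CTTTATA, which leaves out the last seed base and ends with an A opposite the first base of the microRNA, and lastly ACTTTATA, which holds both. For miR-142a-3p they were, in the same order, ACACTAC for the whole seed, then CACTACA with the final A, and lastly ACACTACA with both. No such letters were found in Tspoap1 (1214 bases of 3′UTR), Rnf43 (1340 bases), Supt4a (304 bases), Mks1 (778 bases), Mtmr4 (2049 bases) or Dynll2 (1908 bases). Vezf1 held 1 match, the 7 bases ACTTTAT, at bases 2370 to 2376 of its 2904-base 3′UTR (chr11:88084195-88084201, plus strand), shown here in capitals because it was the only match among the 7 genes.
Vezf1 site: tttgtatgcatACTTTATtcacttaagaa
Among 11509 tested genes with an annotated 3′UTR, 30.7% held a match of these kinds to either seed, 23.5% to miR-142a-5p and 12.1% to miR-142a-3p. A match is a description of letters and not evidence that a site is used.

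Mir142 was read in every CP CML mouse and in no BC CML mouse, as its label states. It had 302 to 650 reads in the 8 CP CML mice, which gave a normalised read count (CPM, reads relative to library size with TMM scaling) of 18.4 in the lowest mouse, 28.4 at the median and 33.8 in the highest, a mean of 27.4 ± 5.49 CPM (SD, n = 8). All 6 BC CML mice had 0 reads, and against a floor of 3 reads in the shallowest BC CML library Mir142 was at least 146.6-fold lower. A second entry, Mir142b, lies on the opposite strand at chr11:87756841-87756955 and contains all 64 bases of Mir142. It had 31 reads over the 8 CP CML mice against 3893 for Mir142, or 0.790% of both, and 0 reads in BC CML. Reads at this place had therefore been assigned by strand, which bears on entries that overlap one on the other strand.

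Tspoap1 encodes TSPO-associated protein 1, also known as RIM-binding protein 1, a cytoplasmic protein that binds the mitochondrial outer membrane protein TSPO and, at synapses, RIM proteins and calcium channels. It is listed on the plus strand at chr11:87760541-87785928 and begins 3.6 kb after the end of Mir142. In CP CML it was a low gene, with 7.63 CPM in the lowest mouse, 12.2 at the median and 16.8 in the highest (12.4 ± 3.37 CPM, SD, n = 8), from 125 to 309 reads. In BC CML it had 20155 CPM in the lowest mouse, 23507 at the median and 25781 in the highest (23084 ± 2070 CPM, SD, n = 6), from 372135 to 464887 reads. The groups lay far apart, with all 6 BC CML mice above all 8 CP CML mice and a fitted difference of 10.85 on the log2 scale (SE 0.17), or 1846-fold. Tspoap1 took 2.03% to 2.53% of all counted reads in a BC CML library and 0.00076% to 0.00166% in a CP CML library. The other 7 members together took 0.0283% to 0.0312% in BC CML and 0.0360% to 0.0402% in CP CML.

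Per kilobase of listed length, Tspoap1 stood at 1.46 RPKM (the CPM divided by the listed length in kilobases) in CP CML, rank 9945 of 12248 tested genes, and at 2699 RPKM in BC CML, rank 3. By reads alone it moved from rank 8189 to rank 1. The spread between mice was 27.1% of the mean in CP CML and 8.97% in BC CML. Within BC CML the lowest Tspoap1 levels were those of mice 5 and 6 (20155 and 21217 CPM), and these mice had the highest summed levels of 15 myeloid marker genes (1569 and 2253 CPM). Of the 15 markers, 13 were higher in BC CML (86.7%, against 32.6% of all tested genes), none was lower and none was at 0 in either group. Whether some passed the filter on low counts only through BC CML was not checked. Over all mice that myeloid sum ranged from 105.4 to 766.3 CPM in CP CML and from 875.9 to 2253 CPM in BC CML. Both Tspoap1 and the myeloid sum were thus higher in all BC CML mice than in all CP CML mice, and the part of the myeloid cells in the Tspoap1 level was not tested.

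**Figure D1:**
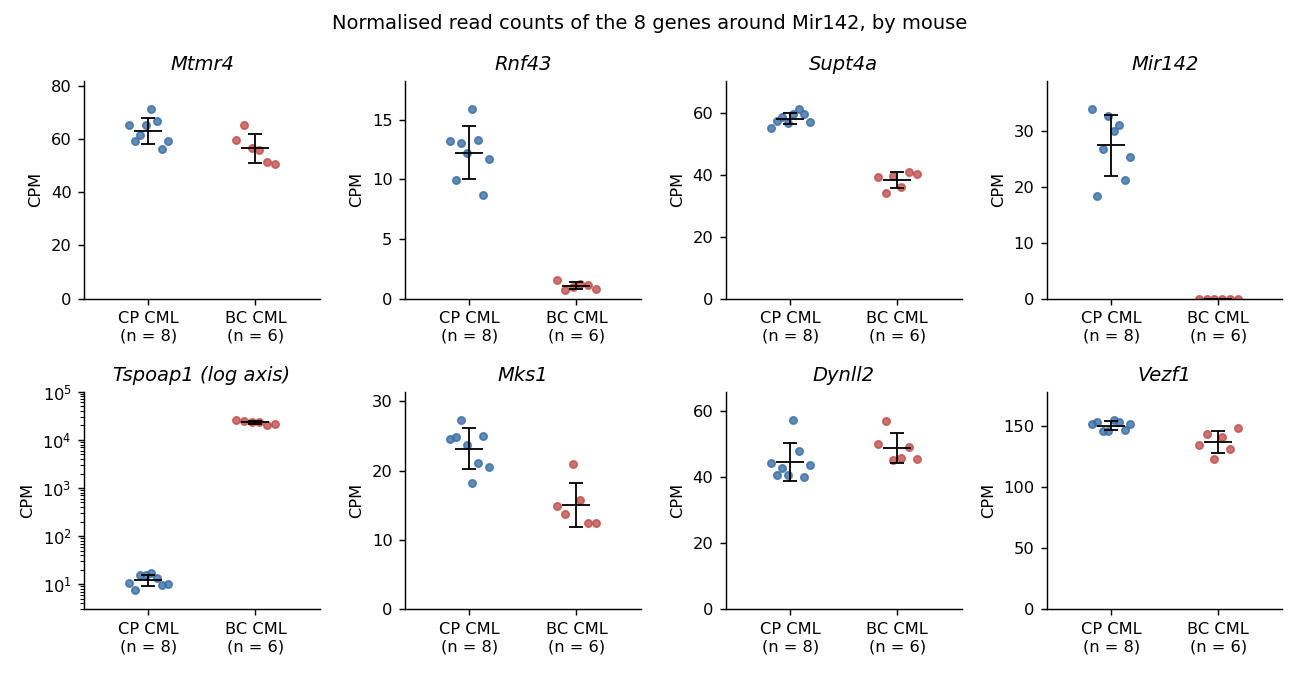
Normalised read counts (CPM, vertical axes, each from 0 except the log axis of Tspoap1) of the 8 genes in each mouse of CP CML (blue, n = 8) and BC CML (red, n = 6); points are mice and the bars are the mean ± SD. The groups were apart in Mir142, Tspoap1, Rnf43 and Supt4a, and they overlapped in Mks1, Mtmr4, Dynll2 and Vezf1.

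Annotations place the start of Tspoap1 differently. GENCODE vM21 begins the gene at base 87760541, as the count table does, 3614 bases past the last base of Mir142. RefSeq (GRCm38.p6) begins it at base 87758194, 1267 bases past Mir142. GENCODE also draws a host transcript of the microRNA, Mir142hg, on the same strand at chr11:87755577-87757270, so in GENCODE a gap separates the host transcript from Tspoap1. Counts per gene do not show where in the gene the reads fell, so the first base of the RNA counted as Tspoap1 in BC CML was not analysed here.

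Rnf43 encodes a membrane E3 ubiquitin ligase that removes Frizzled receptors from the cell surface and so restrains Wnt signalling. It is listed on the plus strand at chr11:87662722-87735539 and ends 21.3 kb upstream of Mir142. The CP CML mice had 8.70 CPM at the lowest, 12.6 at the median and 15.9 at the highest (12.2 ± 2.20 CPM, SD, n = 8), from 142 to 256 reads. The BC CML mice had 0.748, 1.04 and 1.55 CPM (1.08 ± 0.301 CPM, SD, n = 6), from 12 to 28 reads. All 6 BC CML mice were below all 8 CP CML mice, and the fitted difference was -3.50 on the log2 scale (SE 0.17), or 11.3-fold lower. Per length, its mean went from 1.93 to 0.169 RPKM and its rank from 9571 to 12018 of 12248. The entry 1110028F11Rik shares 5804 bases and the strand with Rnf43 (chr11:87699524-87705327), and had 2 to 17 reads per mouse in CP CML and 0 to 3 in BC CML, so reads in that stretch could not be given to one entry with certainty.

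Supt4a encodes SPT4, the small partner of SPT5 in the DSIF complex, which acts on paused and elongating RNA polymerase II. It is listed on the plus strand at chr11:87737565-87743617, between Rnf43 and Mir142, and ends 13.2 kb upstream of Mir142. The CP CML mice had 55.3 CPM at the lowest, 58.0 at the median and 61.2 at the highest (58.2 ± 1.93 CPM, SD, n = 8). The BC CML mice had 34.3, 39.5 and 40.8 CPM (38.4 ± 2.61 CPM, SD, n = 6). The groups did not overlap, and Supt4a in BC CML stood at 66.0% of its level in CP CML, a difference of -0.60 on the log2 scale (SE 0.04). Among the 7 protein-coding members it had the highest level per length in CP CML, 63.5 RPKM, and 41.9 RPKM in BC CML.

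The RefSeq windows around the start of Rnf43 and Supt4a are shown because these neighbours, side by side on one strand, were both lower in BC CML. The windows are on the plus strand of GRCm38.p6 at chr11:87662837-87663136 for Rnf43 and chr11:87737301-87737600 for Supt4a, and CG pairs, which read the same on both strands, are in capitals.
Rnf43: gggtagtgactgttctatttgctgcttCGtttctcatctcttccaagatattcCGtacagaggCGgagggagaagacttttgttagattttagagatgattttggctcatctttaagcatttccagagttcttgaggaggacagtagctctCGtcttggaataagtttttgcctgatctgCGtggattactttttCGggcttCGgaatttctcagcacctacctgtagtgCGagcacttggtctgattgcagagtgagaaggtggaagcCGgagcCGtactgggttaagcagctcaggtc
Supt4a: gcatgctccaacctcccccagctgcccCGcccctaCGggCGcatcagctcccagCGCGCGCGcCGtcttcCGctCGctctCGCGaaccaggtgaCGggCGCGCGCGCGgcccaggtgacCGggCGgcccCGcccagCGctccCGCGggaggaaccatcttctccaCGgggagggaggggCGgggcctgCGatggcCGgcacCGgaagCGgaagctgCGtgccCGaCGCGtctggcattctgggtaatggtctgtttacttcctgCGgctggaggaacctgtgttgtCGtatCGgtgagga
The Rnf43 window held 10 CG pairs, and 43.5% of 32851 RefSeq windows of this length held as many or more. A second Rnf43 start listed by RefSeq held 3. The Supt4a window held 37, which 5.58% of windows reached, that of Mks1 held 20 (26.5%) and that of Vezf1 held 51 (0.715%), against a median of 7. No window was matched for Mir142, Tspoap1, Mtmr4 and Dynll2.

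Mks1 encodes a component of the transition zone at the base of the cilium, altered in Meckel syndrome. It is listed on the plus strand at chr11:87853225-87863679, 96.3 kb downstream of Mir142. The CP CML mice had 18.2 CPM at the lowest, 24.1 at the median and 27.3 at the highest (23.1 ± 2.97 CPM, SD, n = 8), and the BC CML mice had 12.4, 14.3 and 21.0 CPM (15.0 ± 3.22 CPM, SD, n = 6). Of the BC CML mice 5 were below all CP CML mice, and BC CML mouse 3 (21.0 CPM) lay within their range. The difference was -0.62 on the log2 scale (SE 0.12), to 64.9% of the CP CML level.

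Mtmr4 encodes a myotubularin phosphatase that removes the 3-phosphate of phosphatidylinositol 3-phosphate on endosomes. It is listed on the plus strand at chr11:87592217-87616296, 140.6 kb upstream of Mir142. The CP CML mice had 56.1 CPM at the lowest, 63.4 at the median and 71.0 at the highest (63.0 ± 4.90 CPM, SD, n = 8), and the BC CML mice had 50.5, 56.2 and 65.1 CPM (56.4 ± 5.44 CPM, SD, n = 6). The groups overlapped, with 3 BC CML mice below all CP CML mice and 3 within their range, and the difference was -0.16 on the log2 scale (SE 0.06). It was no longer called when CP CML mouse 4, 5 or 6 or BC CML mouse 5 or 6 was left out, with differences between -0.20 and -0.13 over all mice left out in turn.

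Dynll2, a dynein light chain that also joins many proteins outside the motor, is the only member on the minus strand (chr11:87979525-87998298, 222.6 kb downstream). The CP CML mice had 40.0 CPM at the lowest, 43.0 at the median and 57.2 at the highest (44.6 ± 5.68 CPM, SD, n = 8), and the BC CML mice had 45.1, 47.3 and 56.9 CPM (48.6 ± 4.52 CPM, SD, n = 6). All 6 BC CML mice lay within the CP CML range, which was widened by CP CML mouse 5 (57.2 CPM), and the difference was 0.13 (SE 0.08). Without that mouse it was 0.18 and passed the threshold.

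Vezf1, a zinc finger transcription factor first studied in blood vessel endothelium, is the farthest member (plus strand, chr11:88068279-88084729, 311.4 kb downstream) and the one with the seed match. The CP CML mice had 146.1 CPM at the lowest, 151.6 at the median and 155.1 at the highest (150.6 ± 3.68 CPM, SD, n = 8), and the BC CML mice had 123.4, 138.2 and 148.3 CPM (137.2 ± 8.95 CPM, SD, n = 6). Of the BC CML mice 5 were below all CP CML mice and 1 lay within their range, and the difference was -0.13 on the log2 scale (SE 0.04). Supt4a and Mks1, which held no match, were lower too (-0.60 and -0.62). The part of the seed match in the level of Vezf1 was not tested.

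Of the 8 members, 1 (Tspoap1) was called higher and 6 lower at an adjusted p-value below 0.05 (quasi-likelihood test of edgeR, adjusted by Benjamini and Hochberg's method over all tested genes), and Dynll2 was not called. Calls were common in this comparison: 65.2% of the 12248 tested genes were called, 32.6% higher and 32.7% lower. The groups did not overlap in 4 members, 1 higher (Tspoap1) and 3 lower (Mir142, Rnf43 and Supt4a), while 36.9% of all tested genes did not overlap. Because this contrast was used to pick the members, nothing is read from these counts. The median difference of the members was -0.38 on the log2 scale and that of all tested genes -0.01.

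The other genes near Mir142 were taken by position after the members, picked with their values known, had been set aside. Within 1 Mb of Mir142 the table lists 31 of them, of which 19 were tested. BC CML was higher in 11 of them (57.9%, against 32.6% of all tested genes) and lower in 3 (15.8%, against 32.7%). This is 73.7% called, against 65.2% of all tested genes and 63.7% of the 1056 tested genes of chromosome 11. The median difference was 0.25 on the log2 scale, against -0.01 over all tested genes, and 3 of the 19 (15.8%) differed by at least 1, against 13.0% of all tested genes. The groups did not overlap in 7 of the 19, in both directions, while 36.9% of all tested genes did not overlap. Within 5 Mb, 28 of 86 such genes were higher (32.6%) and 27 lower (31.4%). With the members included, 27 genes within 1 Mb were tested, of which 12 were higher (44.4%) and 9 lower (33.3%). The members set aside were mostly lower, so the shares without them are not those of position alone.

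Within 100 kb of Mir142, 5 entries other than the members are listed, and only Mpo, the myeloperoxidase gene of neutrophil granules, could be tested. It lies on the plus strand at chr11:87793784-87804412, 36.9 kb downstream of Mir142 and next after Tspoap1. Mpo had 0.401 CPM in the lowest CP CML mouse, 4.12 at the median and 21.9 in the highest (6.34 ± 7.01 CPM, SD, n = 8), and 3.71, 26.0 and 88.2 CPM in BC CML (31.8 ± 31.5 CPM, SD, n = 6). The groups overlapped over a wide range, with a difference of 2.36 (SE 0.79, adjusted p = 0.0194, edgeR). Without BC CML mouse 6, the mouse with the highest myeloid sum, it was 1.71 and no longer passed (adjusted p = 0.0738, edgeR). Elane, the neutrophil elastase gene of the myeloid marker list, overlapped between the groups too and had 1.46 ± 1.63 CPM in CP CML and 12.5 ± 11.3 in BC CML, a difference of 3.14 (SE 0.81). Whether the Mpo reads came from myeloid cells in the sort was not tested. The other 4 entries had few reads, with 13 over all CP CML mice and 9 over all BC CML mice in Hsf5 and 0 in Lpo, which lies between Mpo and Mks1.

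Farther out, Ppm1e, a protein phosphatase gene 397.9 kb upstream, rose from 1.26 to 4.53 CPM on average, by 1.85 on the log2 scale (SE 0.19, adjusted p = 1.3e-07, edgeR), and Cuedc1, 342.2 kb downstream, by 0.88 (SE 0.10, adjusted p = 3.6e-07). Gdpd1, 682.7 kb upstream, rose by 0.77 (SE 0.19, adjusted p = 0.00205, edgeR). The 3 that fell were 0610039H22Rik (-1.06, SE 0.33), Smg8, a cofactor of nonsense-mediated decay (-0.46, SE 0.06), and Mrps23, a mitochondrial ribosome subunit gene (-0.37, SE 0.05). None of these neighbours differed as much as Rnf43 or Tspoap1.

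**Figure D2:**
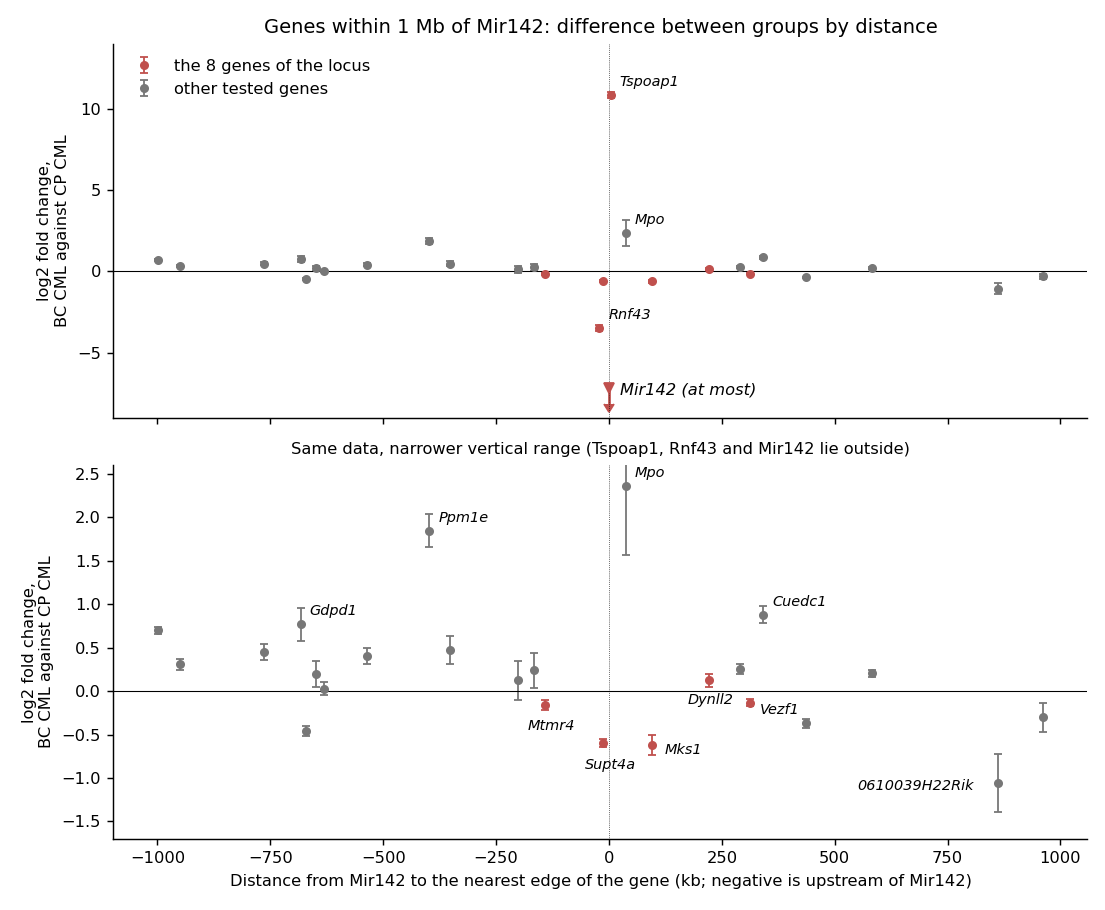
Difference between BC CML and CP CML (log2 fold change, points, with SE bars) of the tested genes within 1 Mb of Mir142 against distance from Mir142 in kb, with the 8 members in red and other genes in grey; the lower panel repeats the data on a narrower scale, and Mir142 is drawn at its bound of -7.20. Tspoap1 (10.85), Rnf43 (-3.50) and Mir142 stand apart, and the remaining genes lie between -1.06 and 2.36.

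Variation between mice of one group was not used to pick the members and was tested for 13 pairs: Mir142 with each other member over the 8 CP CML mice, and Tspoap1 with each remaining member over the 6 BC CML mice. In CP CML, Mir142 had a Pearson r of 0.78 with Mtmr4 (Spearman rho 0.69, exact permutation p = 0.0227 and 0.0694), 0.77 with Rnf43 (rho 0.69, exact permutation p = 0.025 and 0.0694) and 0.73 with Tspoap1 (rho 0.57, exact permutation p = 0.0418 and 0.151). The r with Supt4a was -0.12, with Mks1 -0.31, with Dynll2 0.46 and with Vezf1 0.03. In BC CML, Tspoap1 had an r of 0.82 with Mtmr4 (rho 0.83, exact permutation p = 0.0486 and 0.0583). None of the 13 pairs passed after Benjamini-Hochberg adjustment, where the lowest adjusted exact permutation p was 0.158 for r and 0.226 for rho. All tests were two-sided.

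The correlations of Mir142 with Rnf43 and Tspoap1 in CP CML rested on few mice, and that with Mtmr4 less so. Without the 2 mice farthest from the median of the first gene, r fell to 0.67 for Mir142 with Mtmr4, to 0.26 with Rnf43 and to 0.15 with Tspoap1, and to 0.40 for Tspoap1 with Mtmr4 in BC CML. CP CML mice 2 and 7 were the lowest in Mir142 (18.4 and 21.3 CPM) and in Tspoap1 (7.63 and 9.68 CPM) and, in the other order, in Rnf43 (9.95 and 8.70 CPM). The same mice had the highest summed level of 8 naive T cell marker genes (7002 and 7157 CPM, against 5729 to 6357 in the other CP CML mice). That sum was 3517 to 4913 CPM in BC CML, with 7 of the 8 markers lower (against 32.7% of all tested genes) and 1, Satb1, higher. Between the groups the sum moved in the direction of Rnf43, while in CP CML mice 2 and 7 it was highest where Rnf43 was lowest. Its part in the level of Rnf43 was not tested. A summed level of 10 general T cell markers was 3415 to 3865 CPM in CP CML and 3773 to 4222 CPM in BC CML, with none of these markers at 0.

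**Figure D3:**
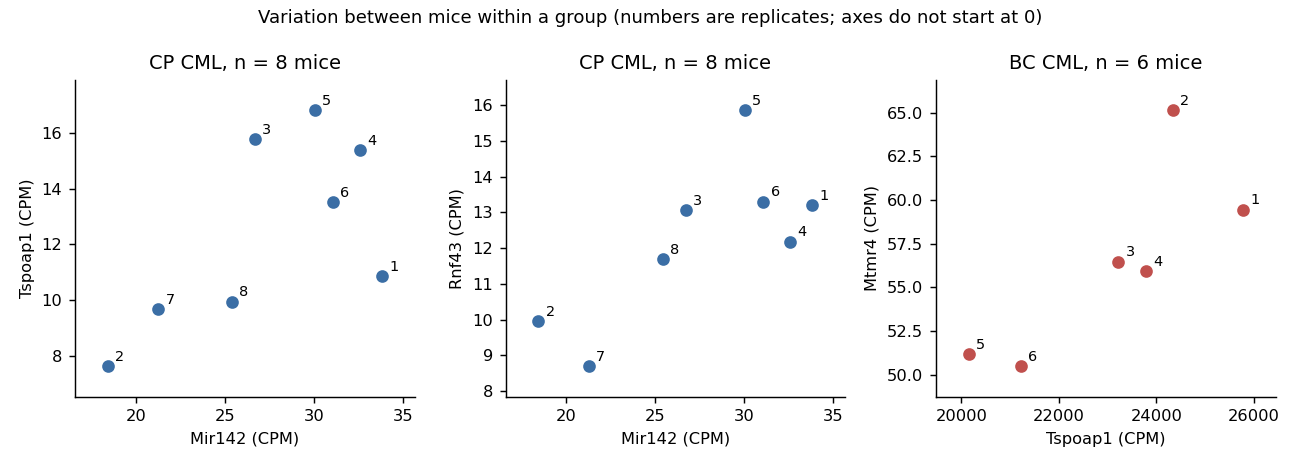
Levels of pairs of members in single mice (CPM on both axes, which do not start at 0; numbers are replicates): Tspoap1 and Rnf43 against Mir142 in CP CML (blue, n = 8) and Mtmr4 against Tspoap1 in BC CML (red, n = 6). CP CML mice 2 and 7 lie at the low end of all 3 genes, and no pair passed the adjusted threshold.

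Other genes whose level followed that of Tspoap1 were looked for over all tested genes, as a description. Over the 14 mice, the highest Pearson r on the log2 scale were those of Laptm4a (0.999), Gna11 (0.999), Cbx6 (0.998), Rcn1 (0.997) and Bmpr2 (0.997). These r reflect the gap between the groups, which all 5 genes share with Tspoap1 at far smaller size, from 1.07 for Cbx6 to 2.61 for Bmpr2 on the log2 scale against 10.85. After the group means were removed, the highest r over the 14 mice were 0.895 for Tmem181b-ps, 0.893 for Mdp1 and 0.893 for Zfp692. Of these 8 genes, Zfp692 alone is on chromosome 11. No member of the locus was among them.

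Genes that act with the members were taken from 6 lists of partners and paralogs, 73 genes in all, of which 51 were tested, 26 were higher, 7 lower and 18 not called, with a median difference of 0.14. The lists, like the members, were chosen with earlier results of these data known, so their counts here and below are a description. The called share, 64.7%, was close to the 65.2% of all tested genes, with 51.0% higher and 13.7% lower against 32.6% and 32.7%. Of the 51 genes, 5 reached the level of the filter on low counts (0.545 CPM in at least 6 mice) through BC CML and not in CP CML alone, so they could hardly be tested without being higher in BC CML, and all 5 were. Without them 21 of 46 were higher and 7 lower. Summed levels of marker genes of other cells were higher beside them, from 59.3 to 178.4 CPM in CP CML and 104.1 to 513.4 CPM in BC CML for B cells, and from 13.9 to 60.3 and 48.1 to 77.9 CPM for erythroid cells, as was the myeloid sum above, and their part in these lists was not tested.

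For Rnf43, 8 genes of Wnt receptor turnover of 20 listed were tested and 6 were higher, none lower, against 32.6% higher among all tested genes. Lgr4 and Fzd10 passed the filter through BC CML, and without them 4 of 6 were higher. The 6 were the paralog Znrf3, which also removes Frizzled receptors (62.9 ± 4.25 CPM in CP CML and 74.9 ± 12.2 in BC CML, 0.25, SE 0.08, not called with the replicate block, 0.21), the R-spondin receptor gene Lgr4, and the genes of 4 Frizzled receptors, the substrates of these ligases. Fzd6 had 0.770 ± 0.345 CPM (SD, n = 8) in CP CML, against 5.96 ± 0.970 (SD, n = 6) in BC CML, a difference of 2.95 (SE 0.21, adjusted p = 1.4e-09, edgeR). The coreceptor genes Lrp5 (0.08) and Lrp6 (-0.01) were not called.

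For Supt4a, 9 genes of transcription pausing were tested, of which 4 were lower (44.4%, against 32.7% of all tested genes) and none higher. Supt5, whose protein is the direct partner of SPT4, had 324 ± 15.4 CPM (SD, n = 8) in CP CML, against 277 ± 8.19 (SD, n = 6) in BC CML, a difference of -0.22 (SE 0.04). Supt6, a histone chaperone that travels with elongating polymerase, had 273 ± 6.63 and 229.7 ± 6.80 CPM, a difference of -0.25 (SE 0.03, adjusted p = 1.2e-06, edgeR). Nelfb and Ccnt1 were the other two lower genes, and Cdk9 (-0.06) was not called. The 4 lower genes differed by -0.22 to -0.31, and the other 5 were not called.

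For Mks1, 11 genes of the ciliary transition zone were tested, of which 9 were higher (81.8%, against 32.6% of all tested genes) and none lower. Of the 9, 2 passed the filter through BC CML, and without them 7 of 9 were higher. Mks1 itself was lower. Tctn1, a tectonic of the same protein complex, had 6.55 ± 1.10 CPM (SD, n = 8) in CP CML, against 27.3 ± 3.01 (SD, n = 6) in BC CML, a difference of 2.06 (SE 0.10, adjusted p = 1.2e-11, edgeR). B9d2 (-0.12) and Tmem216 (0.11) were not called. In the myotubularin family of Mtmr4, 13 genes were tested, 6 higher (46.2%, against 32.6% of all tested genes) and 2 lower (15.4%, against 32.7%). Mtmr11 passed the filter through BC CML, and without it 5 of 12 were higher. In each direction the called gene with the lowest p-value was Mtmr9, from 41.5 ± 2.07 to 67.3 ± 3.03 CPM (0.70, SE 0.04, adjusted p = 1.3e-10, edgeR), and Sbf1 at -0.19 (SE 0.05).

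For Dynll2, 7 dynein chain genes were tested, of which 5 were higher and none lower, so that 71.4% were called against 65.2% of all tested genes (32.6% higher). Dync1li2, a light intermediate chain, had 87.0 ± 2.75 CPM (SD, n = 8) in CP CML, against 125.4 ± 4.97 (SD, n = 6) in BC CML (0.53, SE 0.03, adjusted p = 3.8e-10, edgeR). The paralog Dynll1 had 69.3 ± 18.6 and 92.8 ± 13.4 CPM, a difference of 0.42 (SE 0.16), whose call was lost without CP CML mouse 1, 2 or 4 or BC CML mouse 2, 5 or 6 (0.37 to 0.42). For Tspoap1, 3 genes of 8 were tested, none was higher and 1 was lower (33.3%, against 32.7% of all tested genes), a count from which nothing is read. Tspo, the partner that gave the gene its name, had 37.2 ± 1.85 CPM in CP CML and 36.1 ± 6.53 in BC CML (-0.04, SE 0.09) and was not called, and Acbd3, which binds TSPO, had 82.5 ± 4.32 and 71.0 ± 1.92 CPM (-0.22, SE 0.04, adjusted p = 9.9e-05, edgeR). Rims1, a synaptic RIM gene, was listed at 0 in all 14 mice.

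**Figure D4:**
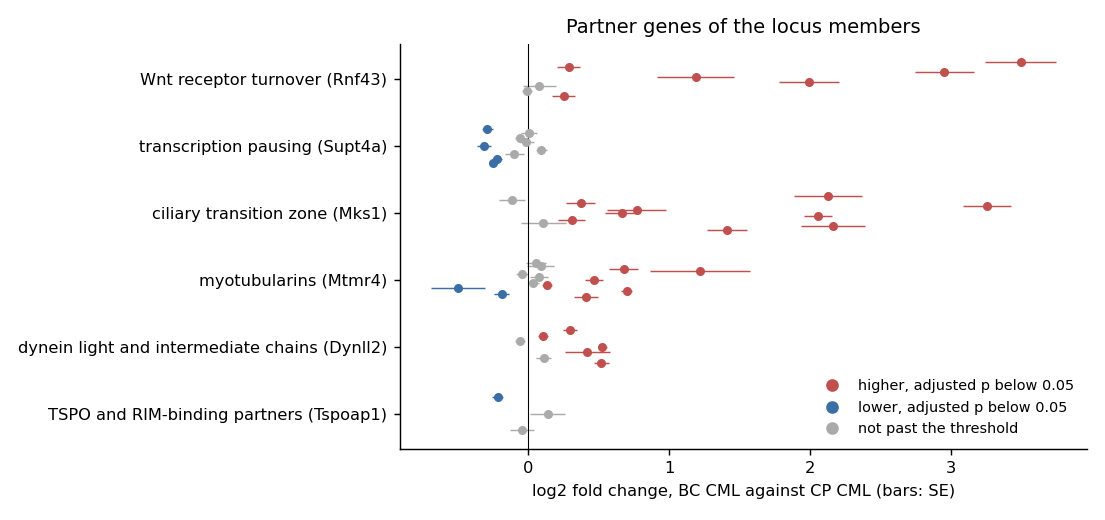
Difference between BC CML and CP CML (log2 fold change, horizontal axis, with SE bars) of the 51 tested partner genes in 6 lists, each list named with its member; red is higher and blue lower at an adjusted p-value below 0.05, grey is not past it. The ciliary transition zone (9 of 11) and Wnt receptor turnover (6 of 8) lie mostly to the right, and the 4 called genes of transcription pausing to the left.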

How the data were processed

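The authors removed adapters (Trimmomatic) and polyA tails (FASTP), mapped the reads to mm10 by STAR 2.6.0 and counted them per gene by HTSeq 0.11.1 (versions per the labels), and deposited raw counts of 24091 genes with their positions and lengths. The annotation and strand setting used for counting are not given in the sources used here. The analysis used R 4.3.3 with edgeR 4.0.16 and limma 3.58.1. The filterByExpr step left 12248 genes, TMM gave the scaling, and the robust quasi-likelihood test compared the groups without covariates, with adjusted p-values (Benjamini-Hochberg) called below 0.05. The SE was the log2 fold change over the square root of F. On simulated counts for 11959 genes, 189 of 200 genes changed by 1 on the log2 scale were recovered, with 11 other calls. Far fewer genes changed there than were called in the data (65.2%), and no gene rose as Tspoap1 did. The simulation therefore did not check the fit under those conditions. RPKM divided CPM by the listed length. Likeness to Tspoap1 used log2 of CPM plus 0.5.

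The members and lists were chosen with earlier results of these data known. Genes were named by a rule: the 8 members, the 5 and 3 genes most like Tspoap1, tested neighbours within 100 kb, among the other neighbours within 1 Mb the 3 risen and 3 fallen with the largest change, and per partner list the called gene with the lowest p in each direction. Members of those lists named beyond this (Znrf3, Lgr4, Fzd10, Lrp5, Lrp6, Supt5, Nelfb, Ccnt1, Cdk9, B9d2, Tmem216, Mtmr11, Dynll1, Tspo, Rims1, Elane and Satb1) and neighbours with few reads were chosen after their values were seen. Of the marker lists, B cell genes were higher in 7 of 8 tested and erythroid genes in 2 of 4, none lower, against 32.6% higher among all tested genes. The marker lists were not checked for genes that passed the filter on low counts only through BC CML.

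Replicates differed beyond sampling noise (chi-square per degree of freedom 3.09 to 22.0 in CP CML and 8.27 to 22.8 in BC CML), so none was counted as a repeat. Each sample was a separate mouse. Alternatives were the likelihood ratio test that the study names, DESeq2 1.42.0, RLE factors, library size with and without the reads of Tspoap1, 2 other filters, a replicate block, other windows and each mouse left out. The floor used for 0, 3 reads, was 0.187 CPM in the shallowest BC CML library. One entry of chromosome 11 that spans over 5 Mb was left out of the neighbours.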

Additional observations from a re-analysis of the deposited data

Results flagged for a closer look

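Dixon's criterion was applied to 27 groups of values of the members and the libraries, and 2 were marked, where chance flags about 1 in 20 groups (1.35 of 27). Dynll2 in CP CML mouse 5 stood at 57.17 CPM against 47.8 CPM in the next mouse, a gap of 0.545 of the group's range. The total of BC CML mouse 2 was 16145537 reads against 18319039 in the next BC CML mouse, a gap of 0.668 of the range. That mouse had the highest Mtmr4 (65.1 CPM) and Dynll2 (56.9 CPM) levels and the lowest Supt4a (34.3 CPM) and Rnf43 (0.748 CPM) levels of BC CML.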

How the results depend on the processing

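The quasi-likelihood test called 7986 genes, the alternatives 7280 to 8719 and the fits with 1 mouse left out 7721 to 7966. The direction of each member's difference was kept in 64 values under 8 alternatives and in 112 with a mouse left out. Of these, Mtmr4 alone lost its call under an alternative (-0.14 with library sizes without the reads of Tspoap1). With a mouse left out it lost its call in 5 fits (-0.20 to -0.13 over all), and Dynll2 gained one in 1. The directions of 19 other named genes were kept in 151 values under alternatives, with 2 calls lost (Dynll1 without a filter, 0.42, and Znrf3 with the replicate block, 0.21), and in 265 of 266 with a mouse left out, the exception being Tspo, not called either way, at 0.018 without BC CML mouse 3 (-0.12 to 0.018 over all). Among neighbours within 1 Mb, 10 to 11 were higher and 2 to 5 lower, with 5 lower when no filter on low counts was used, where more genes were tested. The counts follow the window: 1 higher and 0 lower within 250 kb, 5 and 1 within 500 kb, 13 and 8 within 2 Mb, and 28 and 27 within 5 Mb. Partner genes were higher in 25 to 30 and lower in 7 to 9 under the alternatives, and in 25 to 27 and 6 to 7 with a mouse left out. No correlation passed under any alternative. With library size without Tspoap1, 4209 genes were higher and 3720 lower, and with library size alone 3880 and 4118. The groups share replicate numbers 1 to 6 but not animals. Deviations of same-numbered mice correlated between -0.273 and 0.356 (mean -0.024), so the numbers did not pair the mice, and the fit with the replicate block called 7280 genes. Low reads limit Rnf43 in BC CML (12 to 28 per library).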
